A study of Brassica rapa with 30 samples.

Results

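Genes were counted in Brassica rapa plants taken through cold and back to warmth. By the rule below, 41 of 41018 had a distinctly lower mean level only after the return to warmth, in both cultivars studied. The members were chosen from their own values. For each cultivar and treatment, R is the log2 ratio of the mean level to the mean level without cold, after adding 1 to both, with levels in CPM, the counts relative to the scaled library size. A member had R at or below -1 after the return to warmth in both cultivars and R within 0.7 of 0 at every time in the cold. The gene Bra024536 was left out by the rule, and the limit of 150 members was not reached. All comparisons of treatments within a cultivar were therefore used in the choice or follow from it, and they are given as descriptions with no test. The rule did not use the comparison between the cultivars, and this is tested. The tests use the same libraries as the rule, so the choice of members can bias them, most directly at NV and V40T10.

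RNA came from whole plants of LP08, labelled early flowering, and of Chiifu, labelled late flowering, raised for 3 weeks in a greenhouse before any cold. Each cultivar had 5 treatments, with 3 libraries for each of the 10 groups. NV plants had no cold. V1, V20 and V40 plants were taken from the cold after 1, 20 and 40 days. V40T10 plants had 40 days of cold and then 10 days of warmth. No plants kept warm to the age of the V40T10 plants were among the samples, so at V40T10 the return to warmth, the earlier cold and the added age cannot be told apart. Nothing in the labels states that the replicates of a group were different plants, so the p-values measure only how far these libraries spread, and that spread may be technical.

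Vernalization is the gain of competence to flower through a long cold period. In Arabidopsis and in Brassica its central target is FLC, a repressor of flowering whose silencing in the cold is kept after the return to warmth. Genes silenced in this way are already low in the cold. For the genes described here, the rule only kept R within a bound at every time in the cold, which does not exclude a lower level there. Some members, such as Bra015628 in Chiifu and Bra002116 in both cultivars, were already lower at V40, as described below. As a class, the members are known only by the timing that the rule sets. The count tables and the RefSeq gene table used here pair none of the 41 IDs with a gene name, so no function, chromosome or sequence is given for any of them, and lists of pathway genes or tissue markers could not be applied. In whole plants, a lower level can mean fewer cells of a type or less RNA per cell, and these cannot be told apart.

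The libraries held 16900984 to 26578598 counts on the 41018 genes, and a level of 0 allows up to 0.0964 to 0.209 CPM as far as counting error goes. Correlations across genes between libraries of a group were 0.916 to 0.96 in Chiifu NV and 0.98 to 0.995 in the other groups. A pair of libraries stood apart in the members' levels. Chiifu NV replicate 3 had 5801 CPM summed over the 41 members, against 4224 and 4386 CPM in replicates 1 and 2. LP08 V40T10 replicate 2 had 1321 CPM, against 1980 and 2182 CPM in replicates 1 and 3. Both make the summed difference between V40T10 and NV larger. Values without them, an alternative chosen after seeing the data, stand beside the results where they turn a direction or end a call.

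After the return to warmth the members together took a far smaller share of the counts than without cold. In LP08 their summed level was 4285 ± 376 CPM at NV, 4853 ± 230 at V1, 4230 ± 360 at V20, 4151 ± 602 at V40 and 1828 ± 450 CPM at V40T10 (SD, n = 3 each). In Chiifu it was 4804 ± 868 CPM at NV, 4756 ± 307 at V1, 5110 ± 613 at V20, 4435 ± 154 at V40 and 2118 ± 139 CPM at V40T10 (SD, n = 3 each). The highest V40T10 library of either cultivar thus lay below the lowest library of every other group. One gene, Bra002116, supplied much of these sums, and without it LP08 had 1489 ± 373 CPM at V40T10, against 3335 ± 382 CPM at NV. Chiifu then had 1461 ± 92 CPM at V40T10, against 3488 ± 896 CPM at NV.

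**Figure D1:**
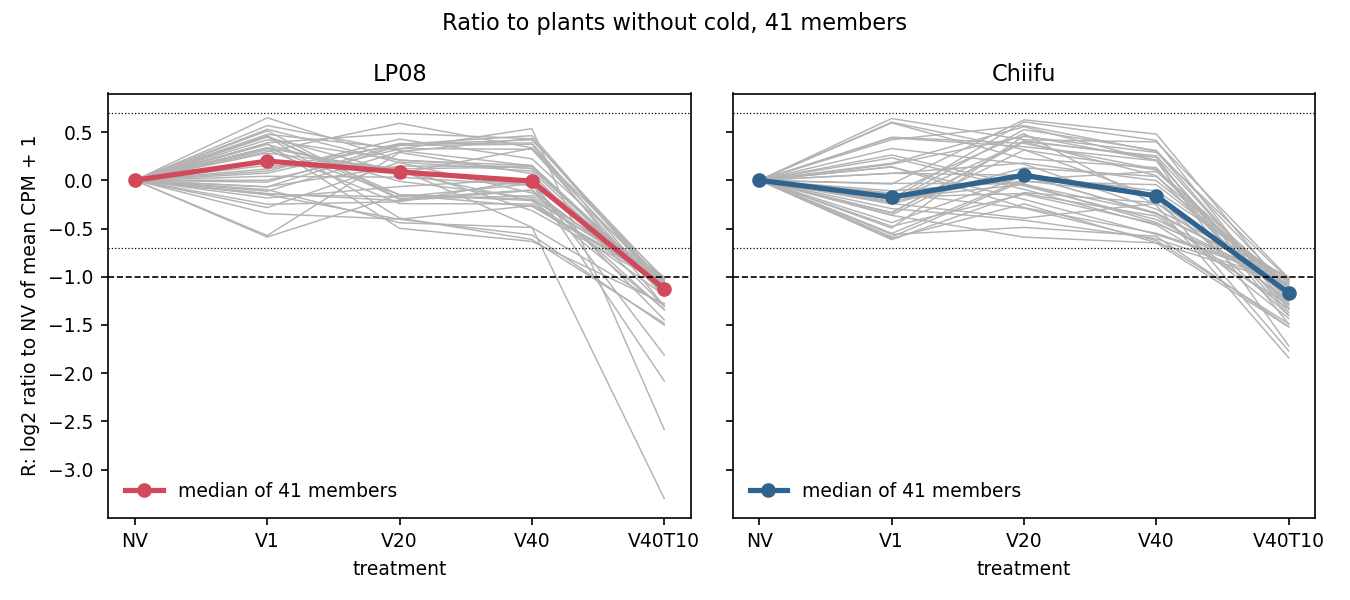
Log2 ratio to NV of the mean CPM + 1 (y axis) at each treatment (x axis) in LP08 and Chiifu, with 1 grey line per member and the median of the 41 members in colour. Dotted lines mark the bound of 0.7 on times in the cold and the dashed line marks the threshold of -1, so that all lines lie between the dotted lines up to V40 and at or below the dashed line at V40T10, as the rule requires.

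Most members were only a little past the threshold. R at V40T10 had a median of -1.13 in LP08 and -1.17 in Chiifu, where the median over the 28489 genes tested was 0 and 0.02. It reached down to -3.30 in LP08 and to -1.84 in Chiifu, and 3 members in LP08 and none in Chiifu lay below -2. For 25 of the 41 members the cultivar with the smaller difference was within 0.1 of the threshold. The last members inside were Bra011519, with R of -1.001 in LP08 and -1.12 in Chiifu, and Bra002116, with -1.48 in LP08 and -1.001 in Chiifu. The first genes outside were Bra018182, with -1.40 in LP08 and -0.98 in Chiifu, and Bra023634, with -0.98 in LP08 and -1.20 in Chiifu. The border of the group is therefore narrow against the spread between libraries.

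Single libraries were also compared. In LP08 the 3 V40T10 libraries lay below all NV libraries and below all V40 libraries for 41 of 41 members, where 29.6% and 30.2% of all genes tested did so. In Chiifu the same held for 41 of 41 members, where 20% and 32.3% of all genes tested did so. In LP08 the 3 V40T10 libraries lay below all 12 other libraries of the cultivar for 41 of 41 members, and in Chiifu for 40 of 41, where 15.8% and 9.66% of all genes tested did so. Both cultivars did so for 40 members, against 4.04% of the genes tested. The rule used these contrasts, so nothing is read from these shares. The exception was Bra037813, with 7.76, 8.07 and 8.13 CPM at V40T10 in Chiifu, against 8.96, 12.1 and 32.2 CPM at NV. Its lowest V1 library in Chiifu was at 7.80 CPM, inside the range of V40T10.

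The members with the lowest R in the cultivar where the difference was smaller were Bra021658 and Bra011482. Bra021658 stood in LP08 at 13.2, 14.1 and 17.5 CPM at NV, 13.9, 12.7 and 13.8 at V1, 10.3, 15.4 and 12.6 at V20, 14.7, 13.8 and 12.8 at V40, and 3.58, 5.72 and 6.53 CPM at V40T10. In Chiifu it stood at 27.6, 32.6 and 67.3 CPM at NV, 31.6, 36.3 and 25.4 at V1, 52.3, 43.4 and 36.1 at V20, 32.7, 40.2 and 27.3 at V40, and 13.8, 17.5 and 14.1 CPM at V40T10. The level was flat through the cold in LP08, with no V40T10 library overlapping any other in either cultivar, and it was lower in LP08 at every treatment. Its mean at V40T10 was 35.4% of that at NV in LP08 and 35.6% in Chiifu. The Chiifu value rests on NV replicate 3. Without it the share was 50.3%, with R of -0.95, and the gene no longer met the rule.

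Bra011482 is a gene of low level. In LP08 it had 1.52, 1.25 and 3.39 CPM at V40T10, against 4.91, 7.87 and 6.83 CPM at NV. In Chiifu it had 1.32, 0.996 and 0.95 CPM at V40T10, against 4.46, 4.51 and 10.4 CPM at NV. At V1 its LP08 mean was 4.07 ± 0.567 CPM, with R of -0.57 and every library below those at NV. In Chiifu its V1 mean was 5.81 ± 0.959 CPM, with R of -0.13. Its means at V20 were above those at NV, at 8.21 ± 0.122 CPM in LP08 libraries and 9.46 ± 2.42 CPM in those of Chiifu (SD, n = 3 each). Its R at V40T10 was -1.30 in LP08 and -1.84 in Chiifu, the lowest of all members there. Without Chiifu NV replicate 3 it was -1.39 in Chiifu, behind 3 other members.

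The members with the highest mean levels followed different courses. Bra002116 had its highest means after 1 day of cold and lower ones at each later time. In LP08 it stood at 950 ± 44.8 CPM at NV, 1302 ± 67.2 at V1, 724 ± 45 at V20, 620 ± 54.1 at V40 and 339 ± 77.7 CPM at V40T10 (SD, n = 3 each). In Chiifu it stood at 1316 ± 56.9 CPM at NV, 1451 ± 14.4 at V1, 1081 ± 78.5 at V20, 898 ± 13.3 at V40 and 657 ± 58.2 CPM at V40T10. Its V40T10 level was 54.7% of that at V40 in LP08 and 73.1% in Chiifu, so part of its distance from NV was already there in the cold, inside the bound of the rule. Bra038646 showed no such decline. It stood at 370 ± 39.2 CPM at NV, 409 ± 85.1 at V40 and 165 ± 40.4 CPM at V40T10 in LP08, and at 285 ± 21.7, 398 ± 21.1 and 126 ± 11.2 CPM at these treatments in Chiifu.

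**Figure D2:**
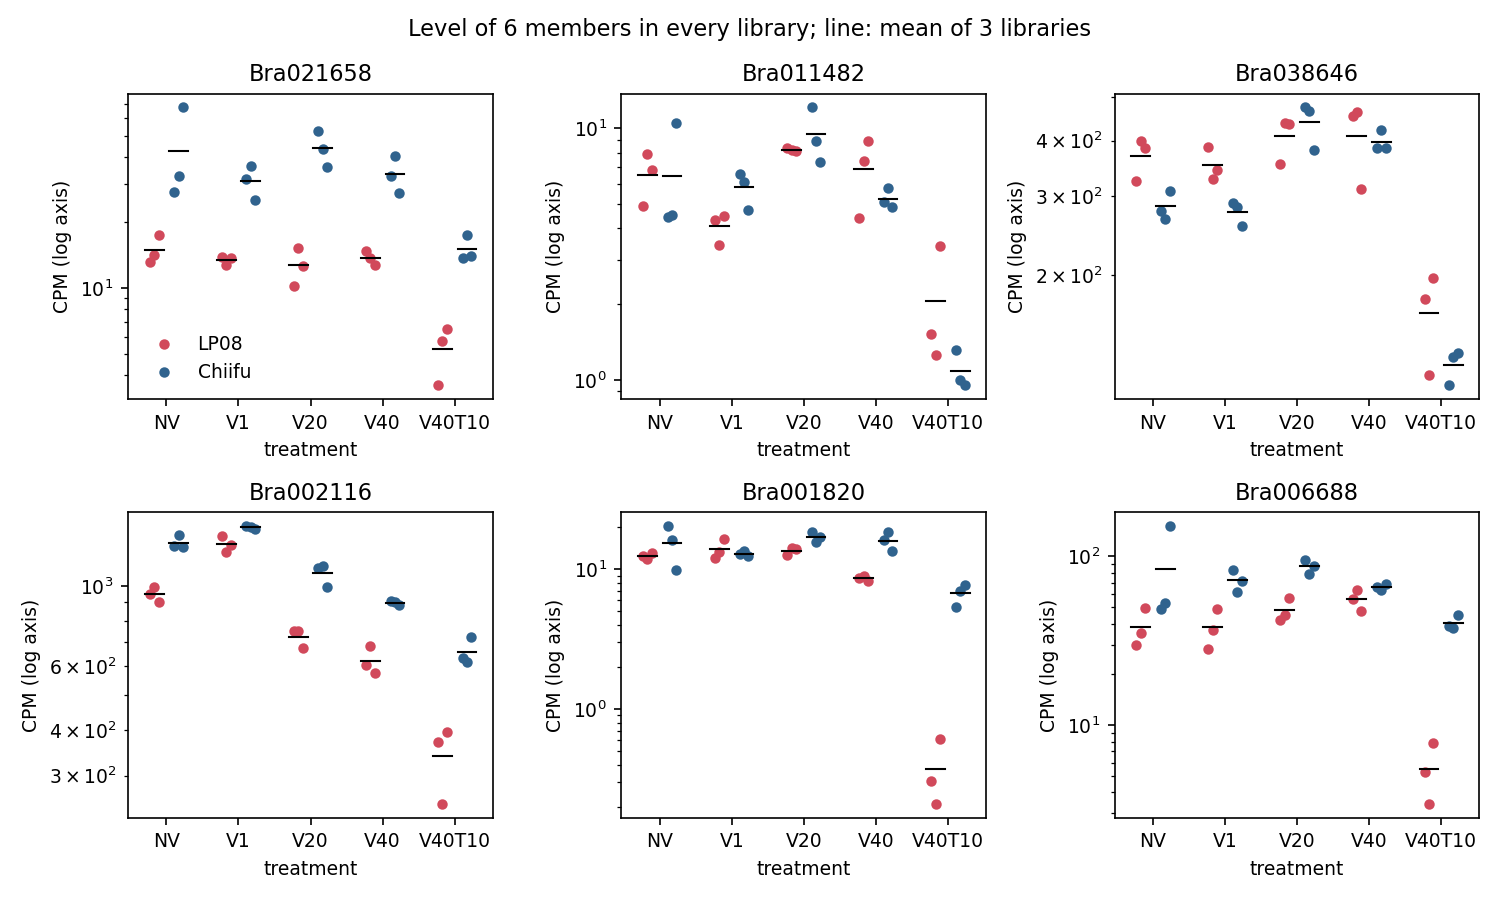
CPM on a log axis (y axis) in each of the 30 libraries at the 5 treatments (x axis) for 6 members, LP08 in red to the left of Chiifu in blue, with a line at each mean of 3 libraries. For Bra001820, the V40T10 libraries of LP08 lie at 0.209 to 0.607 CPM and those of Chiifu at 5.40 to 7.75 CPM, and Chiifu NV replicate 3 stands well above its group for Bra021658 and Bra006688.

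R at V40T10 differed by less than 0.5 between the cultivars for 34 of 41 members, which follows in part from the threshold that both had to pass. It was lower in LP08 for 16 members and lower in Chiifu for 25. This balance rests on single libraries. Without Chiifu NV replicate 3 it was lower in LP08 for 30 and in Chiifu for 11, without LP08 V40T10 replicate 2 for 10 and 31, and without both for 24 and 17. The members that were farthest below NV in LP08 were Bra001820, Bra006688 and Bra037813. Bra001820 had 0.304, 0.209 and 0.607 CPM at V40T10 in LP08, from 5, 3 and 12 counts, against 12.4, 12 and 13.2 CPM at NV. In Chiifu it had 5.4, 7.04 and 7.75 CPM at V40T10, against 20.5, 16.3 and 9.94 CPM at NV. In LP08 its V40T10 level was thus 2.98% of that at NV, while in Chiifu it was 43.2%. Bra006688 stood at 5.50 ± 2.2 CPM at V40T10 in LP08, 14.5% of its NV level, and at 40.4 ± 3.89 CPM in Chiifu, 47.9% of its NV level, or 79.5% without Chiifu NV replicate 3. Without Chiifu NV replicate 3, R at V40T10 in Chiifu was -0.32 for Bra006688, -0.36 for Bra037813 and -1.33 for Bra001820. Bra003471 lay at the other end, with R of -1.07 in LP08 and -1.72 in Chiifu.

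How far the group rests on single libraries was read from applying the rule again with each of the 30 libraries left out in turn. The members that still met it were 16 of 41 without Chiifu NV replicate 3 and 18 of 41 without LP08 V40T10 replicate 2, and between 30 and 41 in the other 28 rounds. Without both libraries, 8 of the 41 still met it. All 41 members stayed below NV in both cultivars without these libraries, but nearer to it. The median R at V40T10 in LP08 was then -0.99 and the one in Chiifu -0.95, against -1.13 and -1.17 with all libraries. The weakest values were -0.78 in LP08 and -0.32 in Chiifu.

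The members that met the rule in each of the 30 rounds were Bra035801, Bra013955 and Bra007310, named after their values were seen. Bra013955 stood at 13, 9.13 and 9.67 CPM at V40T10 in LP08, against 26.9, 33.8 and 31.2 CPM at NV. In Chiifu it stood at 13.5, 15.3 and 17.6 CPM at V40T10, against 37.4, 28.8 and 37 CPM at NV. Its R at V1, V20 and V40 was between -0.11 and 0.20 in both cultivars, so its level hardly moved before the return to warmth. Bra007310 likewise showed no wide Chiifu NV group, with 15.5, 16.9 and 19 CPM there and 6.85, 5.85 and 6.42 CPM at V40T10.

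**Figure D3:**
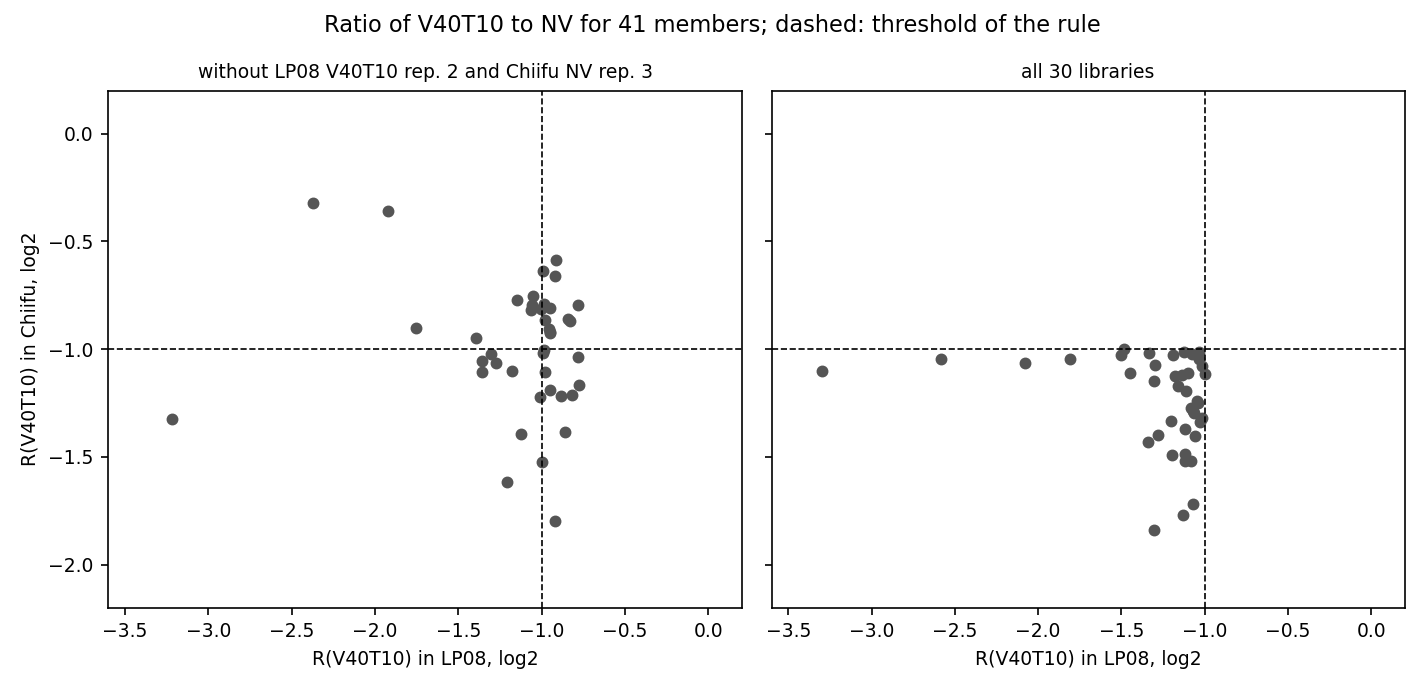
R at V40T10 in LP08 (x axis, log2) and in Chiifu (y axis, log2), 1 point per member, on the left without LP08 V40T10 replicate 2 and Chiifu NV replicate 3 and on the right with all 30 libraries, dashed lines marking the threshold of -1. With all libraries many points lie just inside at least 1 of the lines. Without these 2 libraries 8 of 41 members still meet the rule while all values stay below 0.

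The members also deviated together within groups, in libraries of one and the same treatment. In LP08 V40T10 replicate 2, 40 of 41 members lay below the mean of the group, with a median deviation of -0.35 on the log2 scale of CPM + 1, and in Chiifu NV replicate 3, 34 of 41 lay above it, with 0.38. Both groups entered the threshold of the rule, which favours such libraries. Joint deviations were common in other libraries too, also in groups that entered only the bound. At V40 in LP08, 38 of 41 members lay above the group mean in replicate 2 and 38 of 41 below it in replicate 3. At V20 in Chiifu, 39 lay above it in replicate 1 and 38 below it in replicate 3. At V1 in Chiifu, 38 lay above it in replicate 1 and 37 below it in replicate 3. At V20 in LP08, 37 lay below it in replicate 1 and 37 above it in replicate 3. In LP08 NV replicate 1, 39 lay below it. Fewer libraries showed little or none of this. Examples are LP08 V1 replicate 1, with 21 members above and 20 below, and Chiifu V40 replicate 3, with 19 above and 22 below. Over all genes tested, 46.3 to 55.5% lay above the group mean in any library, and the median deviation lay between -0.01 and 0.01. Members are thus not independent of one another, and their part in library-wide differences was not tested.

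**Figure D4:**
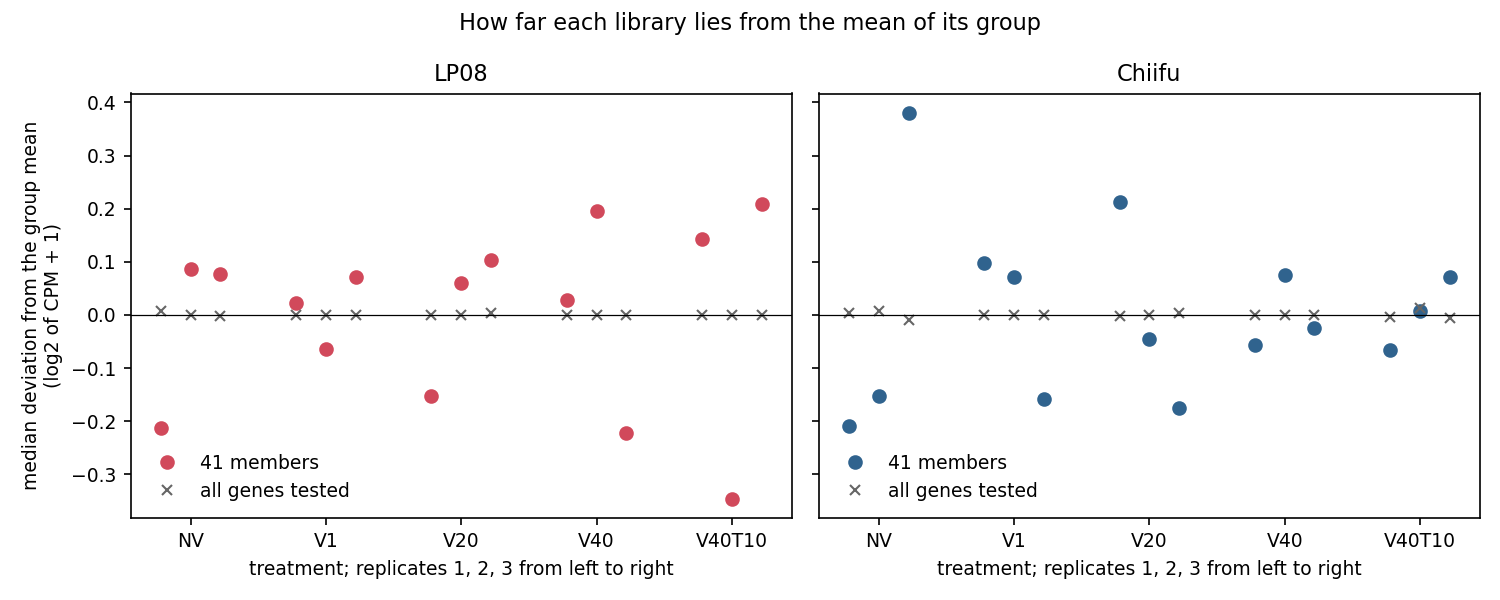
Median deviation from the group mean on the log2 scale of CPM + 1 (y axis) in each library, replicates 1 to 3 from left to right within each treatment (x axis), for the 41 members (circles) and all genes tested (crosses). The members' lowest library is LP08 V40T10 replicate 2 at -0.35 and their highest is Chiifu NV replicate 3 at 0.38, while the crosses stay near 0.

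Within the bound of the rule, the members did not share a course through the cold. After 1 day, 27 members in LP08 and 15 in Chiifu were above NV by their means, with median R of 0.20 in LP08 and -0.17 in Chiifu. For 13 members LP08 was above NV and Chiifu below it at V1, and for 1 the reverse held. The Chiifu side rests on NV replicate 3. Without that library 29 members were above NV in Chiifu at V1, with a median R of 0.14, and the cultivars had opposite signs for 5 members with LP08 above and 7 with Chiifu above. After 20 days, 18 members were above NV in both cultivars and 10 below it in both, and after 40 days these numbers were 12 and 16. Without Chiifu NV replicate 3 they were 24 and 3 after 20 days, and 16 and 9 after 40 days. From V40 to V40T10, the log2 ratio had a median of -1.26 in LP08, ranging from -3.12 to -0.64, and of -1.11 in Chiifu, ranging from -1.92 to -0.43.

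Genes with this timing were a small part of those low after the return to warmth, with all libraries in use. R at V40T10 was at or below -1 in both cultivars for 488 genes, Bra024536 aside. Of these, 320 had R at or below -0.7 at some time in the cold in at least 1 cultivar, and at or above 0.7 in neither. For 55 the reverse held. Another 72 had both, in the same cultivar or in different ones, and the 41 members (8.4%) had neither. The mirrored rule, for genes higher only after the return to warmth, was met by 83 genes. In LP08 alone the rule of lower levels was met by 791 genes and in Chiifu alone by 542, so the 41 members were 5.18% of the first list and 7.56% of the second. These lists use the values that chose the members, and nothing is read from their overlap.

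The members were well expressed. Their mean CPM over the 30 libraries had a median of 49.2, with quartiles at 20.4 and 112, where all genes tested had a median of 9.51. Levels under 10 CPM were seen for 2 of 41 members and for 51.2% of all genes tested. All 41 passed the filter on low counts. At low levels the added 1 holds R near 0, so few weakly expressed genes could meet the rule. It also hides earlier shifts. Bra015628 in Chiifu had 1.92 ± 0.132 CPM at NV, 0.924 ± 0.223 at V1 and 0.864 ± 0.245 at V40 (SD, n = 3 each). Its V40 level was 45% of that at NV, so it was already lower in the cold, while its R was -0.65.

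Whether the cultivars differed in the level of these genes was tested at each treatment. At NV 3 of 41 members were higher and 7 lower in LP08 than in Chiifu, which is 7.32% and 17.1%, where 21% and 24.2% of all genes tested were (edgeR quasi-likelihood test, adjusted p below 0.05 over all genes tested). At V1, 5 were higher and 3 lower, where 21.8% and 21.4% of all genes were. At V20, 4 were higher and 10 lower, where 19.9% and 21.9% were, and at V40, 5 were higher and 7 lower, where 20.1% and 22.2% were. At V40T10 the numbers were 8 higher, or 19.5%, and 12 lower, or 29.3%, close to the 27% and 31.7% of all genes tested. No call at any treatment was made for 14 of 41 members, or 34.1%, where 16% of all genes had none. To meet the rule, members had to be expressed at NV in both cultivars, which was not asked of all genes tested. The shares of members and of all genes therefore do not compare like with like. Median differences of LP08 minus Chiifu lay between -0.22 at V20 and 0.12 at V1 on the log2 scale.

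The balance of these calls depended on Chiifu NV replicate 3, on the scaling and, at NV, on the fit. The main fit shares 1 estimate of spread per gene over all groups. The median SD over genes tested was 0.356 in Chiifu NV, against 0.107 to 0.168 in the other groups (log2 of CPM + 1). With edgeR on the compared libraries alone, 1 member was higher and 2 lower at NV. With limma voom weights per group these numbers were 0 and 2. Without Chiifu NV replicate 3, 10 members instead of 3 were higher in LP08 at NV. Without LP08 V40T10 replicate 2, 7 instead of 12 were lower in LP08 at V40T10. Without both, 11 were higher at NV and 13 instead of 8 at V40T10. With library totals in place of TMM factors, the calls at NV were 2 higher and 9 lower. They were 8 and 6 at V40, and 2 and 23 at V40T10. At V40T10 that scaling shifts the median of all genes tested by -0.45 instead of -0.04. Shares of all genes tested called under these settings are not given, so no shift is read as particular to the members.

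**Figure D5:**
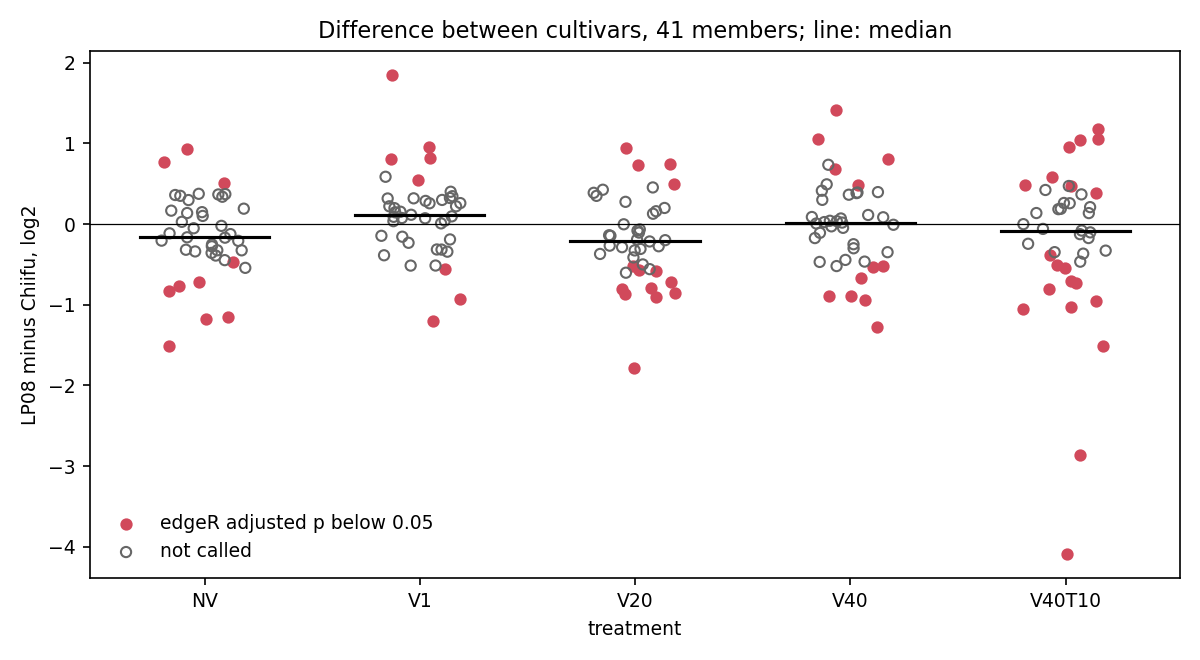
Log2 difference of LP08 minus Chiifu (y axis) at the 5 treatments (x axis), 1 point per member, filled where the edgeR adjusted p was below 0.05, with a line at the median of the 41 members. The 2 lowest points at V40T10, at -4.09 and -2.86, are Bra001820 and Bra006688.

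Members called different between the cultivars at every treatment were few, as among all genes tested. Bra015628 and Bra026135, or 4.88% of members, were called higher in LP08 at all 5 treatments, where 6.72% of all genes tested were. Bra021658 and Bra014414, also 4.88%, were called lower at all 5, where 9.84% of all genes tested were. Bra026135 stood at 25, 26.2 and 29.5 CPM in LP08 NV libraries, against 13.2, 10.5 and 23.9 CPM in Chiifu NV libraries. At V40T10 it stood at 14.6, 8.57 and 14.5 CPM in LP08, against 6.4, 5.66 and 6.16 CPM in Chiifu. The cultivars did not overlap at either treatment. Its difference was 0.77 on the log2 scale at NV (SE 0.23, edgeR adjusted p 0.00881), which was no longer called without Chiifu NV replicate 2 (0.54, edgeR adjusted p 0.0623, range over all alternatives 1.41e-05 to 0.144), and 1.06 at V40T10 (SE 0.24, edgeR adjusted p 0.000573). Bra015628 is scarcer, with 1.4, 0.837 and 0.455 CPM at V40T10 in LP08, against 0.363, 0.418 and 0.38 CPM in Chiifu, from 8 to 23 counts a library. Its difference there was 1.17 (SE 0.36, edgeR adjusted p 0.00733), and 0.69 without LP08 V40T10 replicate 1 (edgeR adjusted p 0.171, range over all alternatives 0.000855 to 0.171).

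Bra021658 was 2.84-fold lower in LP08 at NV, a log2 difference of -1.51 (SE 0.25, edgeR adjusted p 3.04e-05), or -1.01 without Chiifu NV replicate 3. The edgeR adjusted p at NV was 0.0254 with the compared libraries alone, and the limma adjusted p was 0.00804 with voom weights. At V40T10 its difference was -1.52 (SE 0.27, edgeR adjusted p 3e-05). Whether the difference changed between treatments was not tested. Bra000178 had 19.8, 28 and 27.8 CPM in LP08 NV libraries, against 37, 32.6 and 102 CPM in Chiifu NV libraries. Its difference of -1.18 at NV (SE 0.28, edgeR adjusted p 0.00143) rested on Chiifu NV replicate 3, as it was -0.47 without it (edgeR adjusted p 0.0531, range over all alternatives 0.00011 to 0.114).

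The members with the greatest differences at V40T10 were Bra001820 and Bra006688, both lower in LP08. Bra001820 was 17-fold lower in LP08 than in Chiifu at V40T10, a log2 difference of -4.09 (SE 0.29, edgeR adjusted p 1.75e-11), with the size limited by the 3 to 12 counts of the LP08 libraries. At NV its difference was -0.32 (SE 0.20, edgeR adjusted p 0.194) and was not called. That rests on Chiifu NV replicate 3, without which it was -0.55 and called (edgeR adjusted p 0.00928). At V20 the difference was -0.33 (SE 0.20, edgeR adjusted p 0.189), and at V40 it was -0.89 (SE 0.20, edgeR adjusted p 0.000757). Bra006688 was 7.27-fold lower in LP08 at V40T10, a log2 difference of -2.86 (SE 0.34, edgeR adjusted p 1.02e-07). At NV the libraries of the cultivars overlapped, with 29.8, 35 and 49.1 CPM in LP08, against 48.6, 53 and 151 CPM in Chiifu, although the difference of -1.15 was called (edgeR adjusted p 0.00377). That call rests on Chiifu NV replicate 3, without which the difference was -0.42 (edgeR adjusted p 0.145, range over all alternatives 0.000432 to 0.145). Bra006688 was also called lower in LP08 at V1 and V20, with no overlap of the cultivars. At V1 it had 28.1, 36.9 and 49.1 CPM in LP08, against 83.3, 61.7 and 71.8 CPM in Chiifu. At V20 it had 42.1, 44.8 and 56.5 CPM in LP08, against 95.6, 78.8 and 88 CPM in Chiifu. At V40 the difference was -0.25 (SE 0.30, edgeR adjusted p 0.542).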

How the data were processed

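The authors deposited whole-number counts of reads per gene for each library, not normalized. Per the submitters' processing notes, FastQC, TopHat2, HTSeq and edgeR were used, without versions. Per the labels' protocols, libraries were made with a TruSeq Stranded mRNA kit and read on a NovaSeq instrument. No source used here gives the genome build, annotation or strand setting, so reads of overlapping, antisense and near-identical duplicated genes cannot be assigned with certainty. Each file held 42186 gene rows, of which the 41018 beginning with Bra were used. The other 1168, with ENSRNA identifiers, held 0.0414 to 0.653%. Unassigned reads, kept out of library sizes, were 6.91 to 11.6% on no gene, 2.67 to 7.29% aligned at several places and at most 0.0591% ambiguous. No libraries of a group were duplicates (chi-square per degree of freedom 6.25 or more over 30 pairs).

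CPM used TMM factors of edgeR 4.0.16 (R 4.3.3) over all Bra rows. The cultivars were compared at each treatment with edgeR's quasi-likelihood test on all 30 libraries, 1 mean per group, after filterByExpr (28489 genes), with Benjamini-Hochberg adjustment over these. The fit was tested on counts simulated with the same spread in every group, and the rule on simulated means without spread. Neither covers the wider spread of Chiifu NV. Alternatives used limma 3.58.1 and DESeq2 1.42.0. Limits from a count of 0 use 3 counts. SDs are over 3 libraries.

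Members and lists were chosen with earlier results of these data known. Genes named by ID were the 2 with the lowest maximum R at V40T10 (at least 10 counts in each NV library), the 2 with the highest mean CPM, up to 2 per direction with the greatest called difference between cultivars and no overlap at NV and at V40T10, those with the extreme differences in R between cultivars, and 2 on each side of the threshold. Others named were chosen after their values were seen. Of all Bra IDs, 1 was found in the RefSeq table of 51589 genes, and no member.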

Additional observations from a re-analysis of the deposited data

How the results depend on the processing

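The number of genes that met the rule, 41, was 17 with library totals in place of TMM factors (8 of the members among them), 25 with group medians (15 of the members), 18 with a bound of 0.5 on times in the cold (18 of the members) and 86 with a bound of 1. It was 39 to 45 with DESeq2 size factors or a pseudocount of 0.5 and 32 with a pseudocount of 2. Leaving out each library in turn gave 18 to 57 genes, and 16 to 41 members kept. Without LP08 V40T10 replicate 2 and Chiifu NV replicate 3 together, chosen after seeing the data, 15 genes met it and 8 members were kept. With library totals, the median R at V40T10 was -1.21 in LP08 and -0.84 in Chiifu, where the medians of all genes tested were -0.04 and 0.28.

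The members called between the cultivars, 10 at NV, 8 at V1, 14 at V20, 12 at V40 and 20 at V40T10, were 3 at NV and 14 at V1 with edgeR on the compared libraries alone, and 2 at NV, 13 at V1 and 22 at V20 with limma voom weights per group. Leaving out each library in turn gave 9 to 15, 7 to 12, 9 to 20, 9 to 18 and 15 to 23, the 9 at V20 without Chiifu V20 replicate 1. Without both libraries named above they were 16 at NV, 15 at V1, 21 at V20 and 20 at V40. Shares of all genes tested called under these settings are not given, so no shift is read as particular to the members. Calls in 1 direction moved further. At V20 the 4 higher in LP08 were 1 or 2 without any 1 Chiifu V20 library or LP08 V20 replicate 2 or 3. At V40 the 7 lower were 11 without Chiifu NV replicate 3. At V40T10 the 8 higher were 4 or 5 without LP08 replicate 1 or 3 or Chiifu replicate 1 or 2. At V1 the 3 lower were 5 without Chiifu NV replicate 3 and the 5 higher were 8 without LP08 V40T10 replicate 2. At NV the 3 higher were 5 without LP08 NV replicate 1. With the compared libraries alone, the 10 lower at V20 were 16, and the 5 higher were 10 at V1 and 8 at V40. With voom weights, the 3 lower at V1 were 6 and the 10 lower at V20 were 17. Of the members called at V40T10, 3 turned sign with library totals. Under DESeq2 size factors, DESeq2's Wald test and no filter on low counts, the counts in either direction stayed within 1.5 times those reported. With the replicate number as a block, the counts were 10, 8, 14, 12 and 18. The deviations of same-numbered libraries correlated at -0.41 to 0.16 between cultivars within a treatment. Same-numbered libraries of different treatments were not compared, so whether replicate numbers pair the samples is not settled.

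At NV, with the compared libraries alone and with voom weights, Bra026135 had edgeR and limma adjusted p-values of 0.144 and 0.102, and Bra000178 of 0.114 and 0.0715. Bra015628 had 0.274 with voom weights at NV and 0.11 with library totals at V40T10. The causes were not tested. Counts of 3 to 12 limit the size of the difference of Bra001820.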
